A study of Homo sapiens with 18 samples.

Results

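The 10 genes WLS, RSPO1, RSPO2, RSPO3, SFRP1, SFRP2, FRZB, DKK1, DKK3 and LEF1 act in WNT signalling, from the release of the signal to the nucleus. They were taken from the count tables by gene symbol, as 10 of 26485 genes counted, and all 10 were among the 12215 genes with enough counts to test. The RNA came from WIBR3, an established human embryonic stem cell (hESC) line, and from cerebral organoids, which are neural cell aggregates grown from such cells. The 6 groups were hESC LIS1+/+, hESC LIS1+/-, Day 5 organoids of LIS1+/+ and of LIS1+/-, and Day 12 organoids of LIS1+/+ and of LIS1+/-, with 3 libraries in each and 18 in all. The gene behind LIS1 is PAFAH1B1; its product controls dynein, a motor protein, and people who lack a working copy develop lissencephaly, a cortex with few or no folds. All groups share the WIBR3 line. The sources used here give neither the altered part of LIS1 nor the number of LIS1+/- clones, and a clone effect cannot be told apart from a genotype effect.

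WNT proteins are lipid-bearing ligands that WLS carries to the cell surface. Outside the cell, R-spondins (RSPO1, RSPO2, RSPO3) raise the response by keeping the WNT receptors at the surface, whereas secreted Frizzled-related proteins (SFRP1, SFRP2, FRZB) bind WNT ligands and DKK1 blocks the LRP co-receptors. DKK3 belongs to the DKK family by sequence but is not a typical blocker of the LRP co-receptors. In the nucleus LEF1 binds DNA together with beta-catenin and switches on target genes, among them LEF1 and DKK1 themselves in many tissues. In the early forebrain, WNT signals from the dorsal midline pattern the cortex, and antagonists such as SFRP1, SFRP2 and DKK1 keep the anterior neural plate free to become forebrain.

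The stretches before the start sites of SFRP2 and FRZB are shown because both genes differed between genotypes, and those of DKK1 and LEF1 because both are known targets of the pathway. Each is the 250 bases before the start in the RefSeq promoter table for GRCh38.p14, read 5′ to 3′ on the strand of the gene. Capitals mark CTTTG on either strand, the short form of the motif that LEF1 and its relatives bind. The SFRP2 stretch is chr4:153789084-153789333 on the minus strand, FRZB chr2:182866638-182866887 on the minus strand, DKK1 chr10:52314031-52314280 on the plus strand and LEF1 chr4:108166302-108166551 on the minus strand.
SFRP2: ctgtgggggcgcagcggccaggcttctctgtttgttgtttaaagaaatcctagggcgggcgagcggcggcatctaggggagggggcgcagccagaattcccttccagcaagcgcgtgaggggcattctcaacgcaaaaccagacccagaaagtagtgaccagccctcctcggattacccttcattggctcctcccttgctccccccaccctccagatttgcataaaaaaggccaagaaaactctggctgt
FRZB: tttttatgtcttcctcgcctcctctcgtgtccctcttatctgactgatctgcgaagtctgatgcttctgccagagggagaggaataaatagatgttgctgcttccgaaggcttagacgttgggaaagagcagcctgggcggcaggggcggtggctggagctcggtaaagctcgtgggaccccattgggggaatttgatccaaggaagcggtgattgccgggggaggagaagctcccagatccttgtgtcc
DKK1: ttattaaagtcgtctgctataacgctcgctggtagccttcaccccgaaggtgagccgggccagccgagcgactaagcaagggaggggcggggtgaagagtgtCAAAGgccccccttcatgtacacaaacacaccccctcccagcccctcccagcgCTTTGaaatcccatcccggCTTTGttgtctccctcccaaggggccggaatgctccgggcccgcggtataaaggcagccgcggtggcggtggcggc
LEF1: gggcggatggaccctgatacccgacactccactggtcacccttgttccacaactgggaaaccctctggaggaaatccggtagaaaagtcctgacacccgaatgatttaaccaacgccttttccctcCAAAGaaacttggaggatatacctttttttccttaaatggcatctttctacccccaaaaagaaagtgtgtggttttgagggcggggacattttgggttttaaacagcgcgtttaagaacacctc
DKK1 held 3 matches, starting 148, 95 and 76 bases before the start, LEF1 held 1 match at 124 bases, and SFRP2 and FRZB held none. CTTTG on either strand occurred in 42.1% of all 35116 promoters of that length. Of the 8 promoters listed for 7 of the 10 genes it was in 3, those of DKK1, LEF1 and RSPO3. No promoter was listed for RSPO2, SFRP1 or DKK3. The longer form CTTTGAT, searched on both strands over 300 bases that include 50 bases after the start, was in none of the 8 promoters listed for 7 of the 10 genes and in 2.62% of all promoters. These matches describe the letters of these windows and not binding.

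The libraries held 1425098 to 4501489 counts over genes, and levels are given as CPM, counts per library brought to a common library size after TMM scaling. File names carry a different pool for each stage, and stage and pool cannot be told apart. Entries not uniquely placed made up 34.9% to 58.3% in hESC (46.2% to 58.3% in LIS1+/+ and 34.9% to 52.5% in LIS1+/-) and 26.5% to 33.7% in organoids, and their part in the first step and in the hESC genotype comparison was not tested. PAFAH1B1 was lower in every LIS1+/- library than in every LIS1+/+ library of its stage, with log2 fold changes of -0.67, -0.58 and -0.78, of which the Day 12 value passed the test in edgeR (adjusted p = 0.0372). That call was lost without any single Day 12 library other than LIS1+/+ replicate 3, among other alternatives (-0.91 to -0.55, adjusted p up to 0.288). The summed level of 8 stem cell markers was 4099 to 5557 CPM in hESC, 1084 to 1712 CPM at Day 5 and 565 to 762 CPM at Day 12, with ZFP42 at 0 in all libraries and NANOG at 0 in 11 of 12 organoid libraries. In hESC the sums were 5170 to 5557 CPM in LIS1+/+ and 4099 to 4305 CPM in LIS1+/-. At Day 5 they were 1598 to 1712 CPM against 1084 to 1420 CPM. Of 7 stem cell markers tested at Day 5, 3 passed as lower in LIS1+/- (42.9%, beside 1.95% of all genes in either direction). The part of these markers in the genotype results was not tested. The summed level of 8 neural progenitor markers, which share SOX2 with the stem cell list, was 1205 to 1409 CPM in hESC, 2595 to 3904 CPM at Day 5 and 1713.5 to 3285 CPM at Day 12. The Day 12 LIS1+/+ libraries were uneven: 13 mesenchyme markers summed to 1127, 184 and 465 CPM in replicates 1, 2 and 3, against 140, 104 and 111 CPM in LIS1+/-. The libraries called here the 3 that stood apart, a choice made with earlier results of these data known, were replicate 2 of Day 12 LIS1+/+, replicate 2 of Day 5 LIS1+/- and, within the hESC LIS1+/+ group, replicate 3. Each had the lowest mean Pearson r of its own group (0.925, 0.951 and 0.959 over the tested genes), while Day 12 LIS1+/+ replicates 1 and 3 were also low, at 0.932 and 0.940. Whether a group's libraries are separate cultures is not stated, so p-values measure only the spread between libraries, which may be technical.

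Most of the 10 genes changed between stem cells and Day 5, and few passed the test between genotypes. A gene passed when its adjusted p in edgeR was under 0.05 over all tested genes. The 10 genes were chosen with earlier results of these data known. Shares of all genes are therefore given for scale and are no test of the set. From hESC to Day 5 in LIS1+/+, 7 of the 10 genes rose and 2 fell, where 22.9% of all tested genes rose and 21.7% fell. In LIS1+/- 6 rose and 1 fell, beside 22.4% and 21.4% of all genes. From Day 5 to Day 12 in LIS1+/+ 5 rose and 1 fell (12.7% and 11.7% of all genes), and in LIS1+/- 4 rose and 3 fell (8.90% and 7.64%). Between genotypes 1 of the 10 passed at Day 5, as higher in LIS1+/- (1.95% of all genes passed in either direction), and 2 at Day 12, both as lower (1.40%). In hESC none passed in edgeR (0.491% of all genes), and 1 passed in DESeq2. An unadjusted p under 0.05 in edgeR was reached by 2 of the genes in hESC, 3 at Day 5 and 6 at Day 12. The share of all genes at that threshold is not given here. The comparisons share libraries: a Day 5 group, for example, enters the genotype comparison and both steps. Where libraries of compared groups are said not to overlap, the share of all genes without overlap is not given. Such separation is a description and not a test result.

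**Figure D1:**
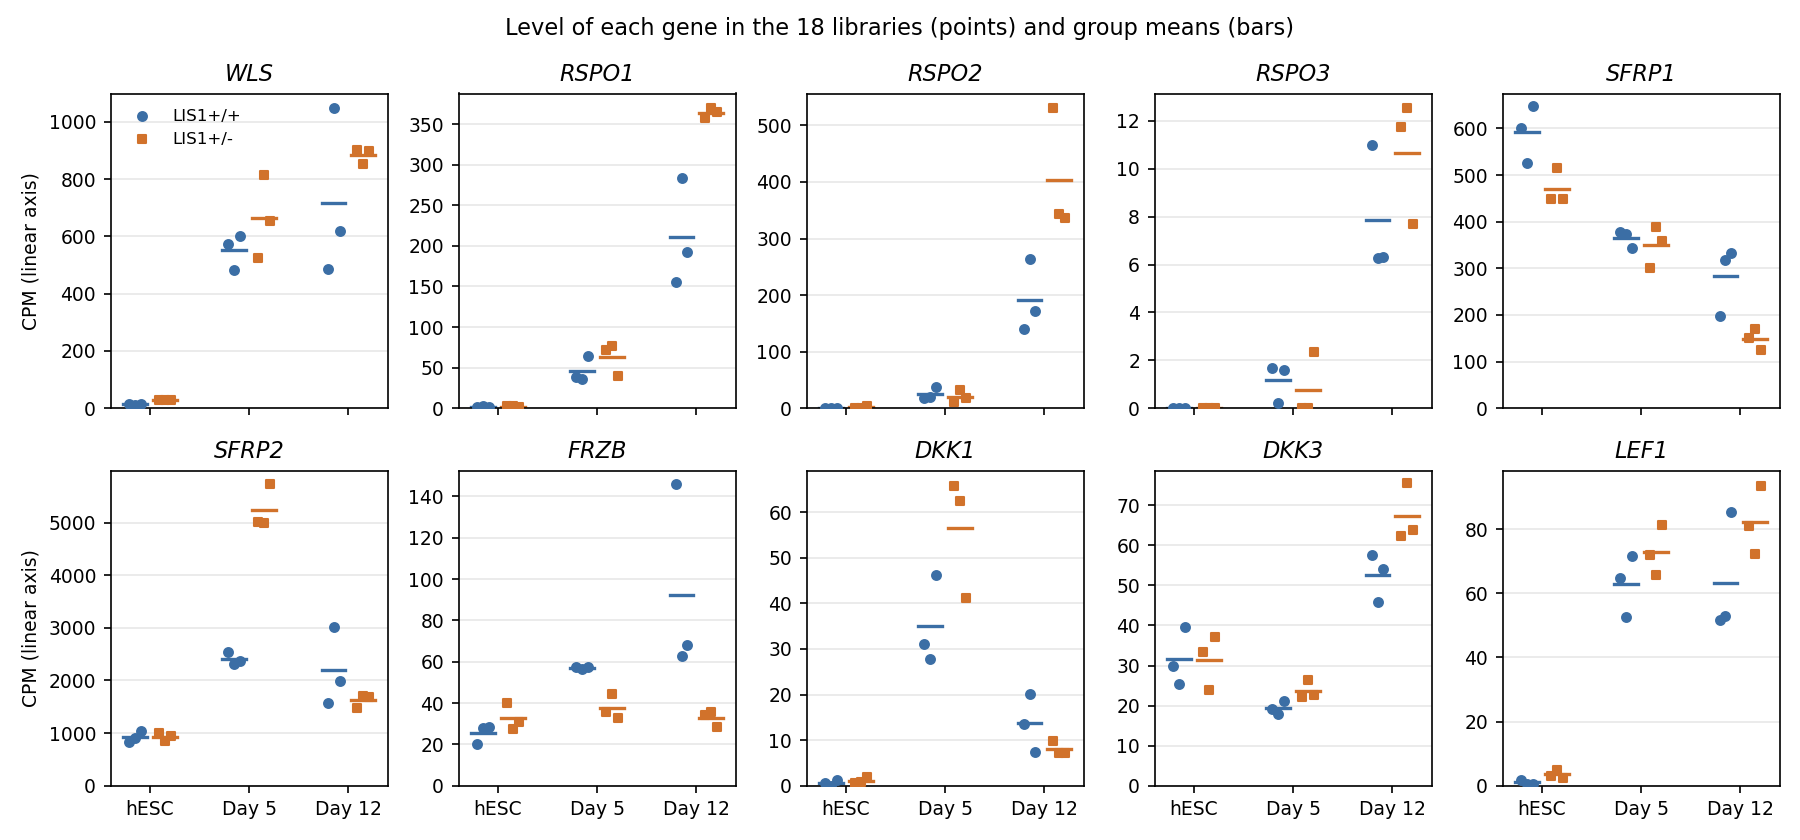
Level in CPM (linear axis, a separate scale for each gene) of the 10 genes in hESC, Day 5 and Day 12 libraries, with blue circles for LIS1+/+ and orange squares for LIS1+/-, 3 points per group and a bar at the group mean. SFRP2 in Day 5 LIS1+/- (5004 to 5738 CPM) and FRZB in Day 12 LIS1+/+ (62.9 to 146 CPM) lie apart from the other genotype of the stage.

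WLS, the carrier needed for WNT release, went from a low level in stem cells to a high one in organoids of both genotypes. In hESC it stood at 15.2, 10.02 and 15.5 CPM in LIS1+/+ and at 29.7, 29.8 and 27.8 CPM in LIS1+/-. At Day 5 it stood at 575, 483 and 600 CPM against 523, 814 and 652 CPM, and at Day 12 at 485, 1047 and 618 CPM against 903, 853 and 897 CPM. Every organoid library lay far above every hESC library, and the genotypes overlapped at Day 5 and Day 12 but not in hESC. The rise from hESC to Day 5 was 5.33 ± 0.27 on the log2 scale in LIS1+/+ (SE, n = 3 against 3, 40.1-fold, adjusted p = 2.93e-14). In LIS1+/- it was 4.51 ± 0.24 (22.8-fold, adjusted p = 1.04e-13). Each SE here and below was worked back from the test statistic and is approximate. Over the next step, to Day 12, the values were 0.37 ± 0.20 (adjusted p = 0.177) and 0.41 ± 0.20 (adjusted p = 0.163), neither of which passed. The LIS1+/+ step passed without Day 12 replicate 1 (0.59, adjusted p = 0.0332), and the LIS1+/- step without the 3 libraries that stood apart (0.59, adjusted p = 0.00524).

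The genotype difference of WLS in hESC was 1.08 ± 0.28 on the log2 scale (2.11-fold, 95% interval 0.49 to 1.66), with an adjusted p of 0.0881 that missed the threshold. It passed without a filter on low counts (adjusted p = 0.00184), in DESeq2 (0.0451) and without the 3 libraries that stood apart (0.0135), and reached 0.270 in the other alternatives. At Day 12 the difference was 0.30 ± 0.20 (adjusted p = 0.545), and without LIS1+/+ replicate 2, the highest of its group at 1047 CPM, it was 0.68 (adjusted p = 0.0350), while the alternatives ranged from an adjusted p of 0.00686 to 0.905. That library also had the lowest mesenchyme sum of its group, at 184 CPM against 1127 and 465 CPM. The part of these markers was not tested. WLS lies over the antisense gene GNG12-AS1 at its 3′ end in GENCODE release 29, and GNG12-AS1 had 0 counts in all 18 libraries.

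The R-spondins, which amplify the response to WNT, were at or near 0 in stem cells. RSPO1 and RSPO2 rose over both steps and RSPO3 over the second. RSPO1 stood at 1.24 to 2.67 CPM in hESC LIS1+/+ and at 1.08 to 2.70 CPM in hESC LIS1+/-. At Day 5 it stood at 38.4, 35.4 and 63.8 CPM in LIS1+/+ and at 71.8, 76.8 and 40.1 CPM in LIS1+/-. By Day 12 LIS1+/+ held 156, 283 and 192 CPM and LIS1+/- 357, 369 and 365 CPM. The stages did not overlap, and at Day 12 all LIS1+/- libraries were above all LIS1+/+ libraries, with an SD of 6.08 CPM against 65.6 CPM. RSPO1 rose 23.3-fold from hESC to Day 5 in LIS1+/+ (adjusted p = 4.07e-09) and 30.7-fold in LIS1+/- (adjusted p = 2.46e-10), then 4.58-fold (adjusted p = 9.53e-07) and 5.81-fold (adjusted p = 9.23e-08) to Day 12.

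RSPO2 had 3 counts in all hESC LIS1+/+ libraries together and 11 in hESC LIS1+/-, of which 10 came from replicate 3. At Day 5 it stood at 18.1, 19.4 and 36.8 CPM in LIS1+/+ and at 11.2, 31.8 and 17.8 CPM in LIS1+/-. By Day 12 LIS1+/+ held 141, 264 and 171 CPM and LIS1+/- 530, 343 and 336 CPM, so that the genotypes overlapped at Day 5 and not at Day 12. The pooled counts per library size were 43.2 times as high at Day 5 as in hESC in LIS1+/+ (95% counting interval 14.7 to 211, adjusted p = 4.95e-05 in edgeR), and in LIS1+/- RSPO2 rose 12.0-fold (adjusted p = 2.68e-04). Both folds rested on few hESC counts: on leaving out the hESC library with most of them, 1 count remained, and the ratio was 77.4 in LIS1+/+ without replicate 1 (13.8 to 3065) and 76.7 in LIS1+/- without replicate 3 (13.6 to 3045). Between Day 5 and Day 12 it rose 7.74-fold in LIS1+/+ (adjusted p = 2.92e-05) and 19.8-fold in LIS1+/- (adjusted p = 9.40e-07).

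RSPO3 had no counts in any hESC library. It stood at 1.69, 0.23 and 1.58 CPM in Day 5 LIS1+/+, and in Day 5 LIS1+/- only replicate 3 held counts, at 2.34 CPM. At Day 12 it stood at 11.0, 6.29 and 6.33 CPM in LIS1+/+ and at 11.7, 12.5 and 7.69 CPM in LIS1+/-. The Day 12 libraries were above all Day 5 libraries, and the genotypes overlapped at both ages. Against a floor of 3 counts over the hESC group, Day 5 was at least 2.00-fold higher in LIS1+/+ and at least 1.99-fold higher in LIS1+/-. In LIS1+/- all 8 counts came from replicate 3, and no bound remained without it. The values were 1.19 without hESC LIS1+/+ replicate 1 and 1.15 without hESC LIS1+/- replicate 3. They leave out the counting error of the Day 5 counts. Neither step passed (adjusted p = 0.0609 and 0.0793 in edgeR). Both passed in DESeq2 and without a filter on low counts, and over all alternatives the adjusted p ran from 0.0224 to 0.171. Between Day 5 and Day 12 RSPO3 rose by 2.71 ± 0.73 on the log2 scale in LIS1+/+ (adjusted p = 0.00962) and by 3.53 ± 0.77 in LIS1+/- (adjusted p = 0.00268). Without Day 5 LIS1+/- replicate 3 no Day 5 counts remained in that genotype, and Day 12 was at least 18.8-fold higher against the floor. The LIS1+/+ value was 2.23 (adjusted p = 0.0527) without Day 5 LIS1+/+ replicate 2, where the other alternatives gave adjusted p-values down to 5.39e-04.

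Neither RSPO1 nor RSPO2 passed the genotype test over all genes at Day 12. Both were higher in every LIS1+/- library than in every LIS1+/+ library. The share of all genes separated in this way is not given here. The log2 difference was 0.79 ± 0.23 for RSPO1 (1.73-fold, adjusted p = 0.0983) and 1.06 ± 0.35 for RSPO2 (2.09-fold, adjusted p = 0.177). The mesenchyme sums of Day 12 LIS1+/+ replicates 1, 2 and 3 were 1127, 184 and 465 CPM. In Day 12 LIS1+/- they were 104 to 140 CPM, and their part in these results was not tested. Sums of 11 roof plate, cortical hem and choroid plexus markers were 1182, 783 and 712 CPM in LIS1+/+ and 710 to 871 CPM in LIS1+/-. GDF7 was at 0 in every Day 12 library. The genotypes overlapped, and replicate 1, with the highest of these sums, was the lowest LIS1+/+ library for both genes. The part of this list was not tested either. Replicate 2, with the lowest mesenchyme sum of the LIS1+/+ group, was the highest LIS1+/+ library for both genes. Without it RSPO1 differed by 1.06 (adjusted p = 0.0119) and RSPO2 by 1.36 (adjusted p = 0.0763), and both passed without any filter on low counts (adjusted p = 0.00236 and 6.45e-06) and without the 3 libraries that stood apart (adjusted p = 0.00575 and 0.0402). The highest adjusted p-values in the alternatives were 0.375 and 0.432, both without LIS1+/+ replicate 1. At Day 5 the differences were 0.45 ± 0.25 for RSPO1 (adjusted p = 0.525) and -0.29 ± 0.40 for RSPO2 (adjusted p = 0.869), and RSPO3 differed by -0.39 ± 0.91 at Day 5 and by 0.44 ± 0.63 at Day 12 (adjusted p = 0.939 and 0.820). In hESC the RSPO2 counts gave a ratio of 2.90 (95% counting interval 0.767 to 16.2).

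**Figure D2:**
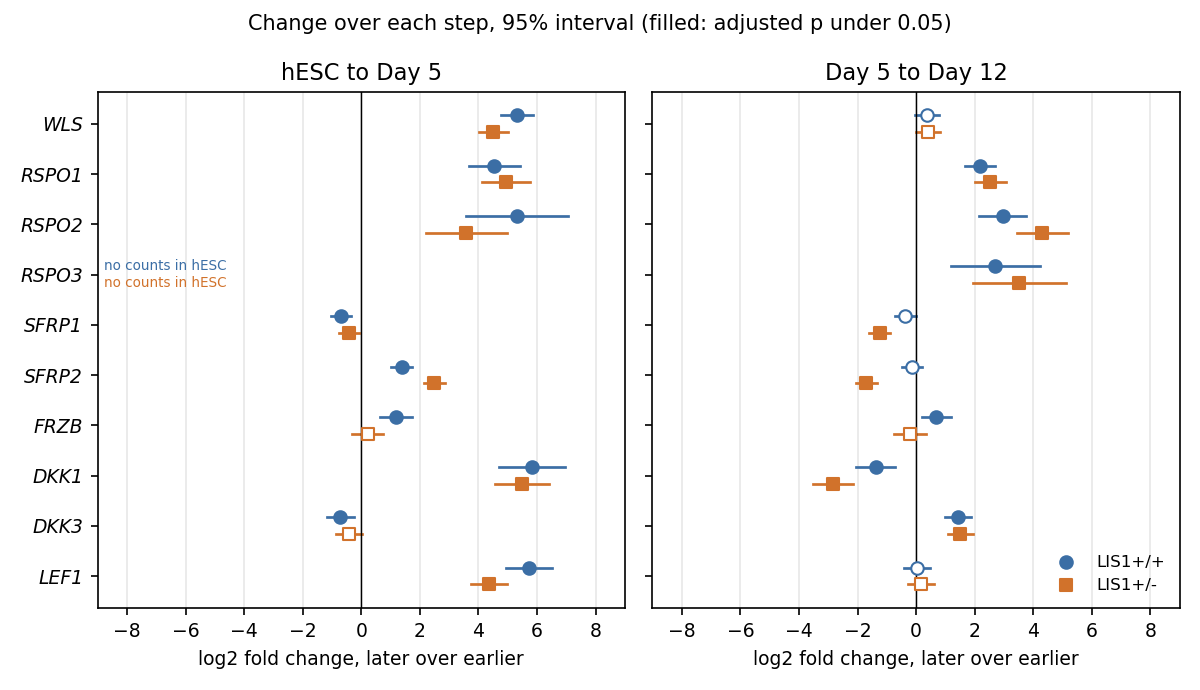
Log2 fold change of the 10 genes over the step to Day 5 (left) and the step to Day 12 (right) in LIS1+/+ (blue circles) and LIS1+/- (orange squares), with lines for the 95% interval of the fit and filled symbols where the adjusted p was under 0.05. The R-spondins lie to the right of 0 in the second step while DKK1 lies to the left, at -1.38 and -2.84, and RSPO3 has no value for the first step because hESC held no counts.

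The Frizzled-related antagonists took 3 different courses. SFRP1, which binds WNT ligands outside the cell, was high in stem cells and fell with time. It stood at 602, 526 and 649 CPM in hESC LIS1+/+ and at 450, 516 and 448 CPM in hESC LIS1+/-. Day 5 organoids held 379, 374 and 343 CPM against 302, 389 and 359 CPM, and Day 12 organoids 198, 318 and 333 CPM against 150, 171 and 126 CPM. In order, the group means ran from hESC LIS1+/+ (592 ± 62.1 CPM, SD) over hESC LIS1+/- (471 ± 38.8), Day 5 LIS1+/+ (365 ± 19.7), Day 5 LIS1+/- (350 ± 44.4) and Day 12 LIS1+/+ (283 ± 74.4) to Day 12 LIS1+/- (149 ± 22.6), and of these neighbours both Day 5 groups overlapped each other and Day 5 LIS1+/- overlapped Day 12 LIS1+/+. SFRP1 fell by 0.70 ± 0.17 on the log2 scale from hESC to Day 5 in LIS1+/+ (adjusted p = 0.00156). In LIS1+/- it fell by 0.43 ± 0.17 (adjusted p = 0.0429), a call lost in 7 of 12 alternatives, among them without any single LIS1+/- library of hESC or Day 5 other than Day 5 replicate 2 (adjusted p up to 0.170).

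From Day 5 to Day 12 SFRP1 fell by 1.23 ± 0.17 in LIS1+/- (2.35-fold lower, adjusted p = 1.24e-05), and in LIS1+/+ the value was -0.37 ± 0.17 (adjusted p = 0.120). At Day 12 it was 1.90-fold lower in LIS1+/- than in LIS1+/+ (log2 -0.93 ± 0.17, 95% interval -1.29 to -0.57, adjusted p = 0.00450), and the libraries did not overlap. The lowest LIS1+/+ library was replicate 1, with the highest mesenchyme sum, and without it the difference was -1.13 (adjusted p = 3.29e-04). The call was lost when only the Day 12 libraries were fitted (-0.95, adjusted p = 0.0714) and without LIS1+/- replicate 3 (-0.82, adjusted p = 0.0596), and the other alternatives had adjusted p-values from 7.20e-05. At the other stages the genotype difference was -0.33 ± 0.17 in hESC (adjusted p = 0.474) and -0.06 ± 0.17 at Day 5 (adjusted p = 0.948). The change of the difference from Day 5 to Day 12, -0.87 ± 0.24, did not pass (adjusted p = 0.0924).

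SFRP2, another secreted antagonist, peaked at Day 5 in LIS1+/-. It stood at 833, 900 and 1046 CPM in hESC LIS1+/+ and at 1002, 850 and 941 CPM in hESC LIS1+/-. At Day 5 it stood at 2539, 2312 and 2379 CPM in LIS1+/+ and at 5010, 5004 and 5738 CPM in LIS1+/-. Day 12 organoids held 1580, 3023 and 1987 CPM against 1473, 1703 and 1685 CPM. The genotypes overlapped in hESC and at Day 12 and lay far apart at Day 5, where the lowest LIS1+/- library (5004 CPM) was well above the highest LIS1+/+ library (2539 CPM). The Day 5 difference was 1.12 ± 0.17 on the log2 scale (2.18-fold, 95% interval 0.78 to 1.47, adjusted p = 2.28e-04), and it passed in all 12 alternatives run. In hESC it was 0.01 ± 0.17 (adjusted p = 0.997), and at Day 12 -0.44 ± 0.17 (adjusted p = 0.243).

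The genotype difference of SFRP2 itself differed between stages. It was larger at Day 5 than in hESC by 1.12 ± 0.24 (adjusted p = 0.0240, where 0.573% of all genes passed this test), and it was lower at Day 12 than at Day 5 by a log2 value of -1.56 ± 0.24 (adjusted p = 6.15e-04, 1.06% of all genes). SFRP2 was the only 1 of the 10 genes to pass in each of these tests. The former call was lost on leaving out hESC LIS1+/+ replicate 3, hESC LIS1+/- replicate 2 or 3, any Day 5 LIS1+/+ replicate or Day 5 LIS1+/- replicate 3, each in turn (1.02 to 1.15, adjusted p up to 0.103), and the latter passed in all 18 alternatives. Within genotypes SFRP2 rose 2.60-fold from hESC to Day 5 in LIS1+/+ (adjusted p = 3.09e-07) and 5.64-fold in LIS1+/- (adjusted p = 1.10e-11), and from Day 5 to Day 12 it fell by 1.70 ± 0.17 on the log2 scale in LIS1+/- (adjusted p = 9.23e-08), against a value of -0.13 ± 0.17 in LIS1+/+ (adjusted p = 0.595). Without Day 12 LIS1+/+ replicate 2 the latter passed as well, at -0.44 (adjusted p = 0.0426), and without the 3 libraries that stood apart (-0.44, adjusted p = 0.0213).

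FRZB, also named SFRP3, was lower in LIS1+/- at Day 12, and its Day 5 difference did not pass. It stood at 20.0, 28.1 and 28.6 CPM in hESC LIS1+/+ and at 39.8, 27.5 and 30.7 CPM in hESC LIS1+/-. Day 5 organoids held 57.6, 56.3 and 57.3 CPM against 35.9, 44.6 and 32.8 CPM, and Day 12 organoids 146, 62.9 and 68.1 CPM against 34.0, 35.6 and 28.5 CPM. At both organoid ages every LIS1+/- library was below every LIS1+/+ library. The Day 5 difference was -0.60 ± 0.25 (adjusted p = 0.313), while at Day 12 FRZB was 2.82-fold lower in LIS1+/- (log2 -1.49 ± 0.26, 95% interval -2.02 to -0.97, adjusted p = 0.00184). Without LIS1+/+ replicate 1 the Day 12 value was -1.01 (adjusted p = 0.026), and with only the Day 12 libraries fitted it was -1.52 (adjusted p = 0.0546). The other alternatives had adjusted p-values from 2.16e-07.

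Over time FRZB rose 2.25-fold from hESC to Day 5 in LIS1+/+ (adjusted p = 8.21e-04), while in LIS1+/- the log2 value was 0.22 ± 0.26 (adjusted p = 0.521). From Day 5 to Day 12 it rose by 0.69 ± 0.24 in LIS1+/+ (adjusted p = 0.0395), and this rested on replicate 1 of Day 12: without that library the value was 0.20 (adjusted p = 0.566). The call was also lost without any 1 of the Day 5 LIS1+/+ libraries (0.68 to 0.69, adjusted p up to 0.101), with the replicate number as a block (0.65, adjusted p = 0.0502) and with only the compared libraries fitted (0.70, adjusted p = 0.0944). The same step was -0.21 ± 0.26 in LIS1+/- (adjusted p = 0.636). The genotype difference at Day 12 was lower than that in hESC by a log2 value of -1.85 ± 0.38 (adjusted p = 0.0231, where 0.377% of all genes passed), and without Day 12 LIS1+/+ replicate 1 this was -1.36 (adjusted p = 0.0582). It was also lost without hESC LIS1+/+ replicate 1, without replicate 1 or 3 of LIS1+/- at either stage, and with only the compared libraries fitted (-1.89 to -1.69, adjusted p up to 0.107).

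Sums of markers of other cell types ranked the Day 12 LIS1+/+ libraries as FRZB did. In LIS1+/+ replicates 1, 2 and 3 FRZB stood at 146, 62.9 and 68.1 CPM beside mesenchyme sums of 1127, 184 and 465 CPM and neural crest sums (8 markers) of 360, 69.8 and 142 CPM. In LIS1+/- the mesenchyme sums were 104 to 140 CPM and the neural crest sums 53.5 to 71.7 CPM. Of the 13 mesenchyme markers FOXC2 was at 0 in all 6 Day 12 libraries, and in LIS1+/- 2 to 4 markers were at 0, among them POSTN in every library. Endoderm, liver and yolk sac sums (9 markers) were 482, 23.9 and 81.8 CPM in LIS1+/+ and 9.97 to 21.6 CPM in LIS1+/-, where 3 to 5 of the markers were at 0, SOX17 and FOXA2 in every library. Surface ectoderm sums (8 markers, TFAP2A shared with the neural crest list) were 388, 114 and 238 CPM against 186 to 209 CPM. TP63 and GRHL2 were at 0 in all 6 libraries. By this list LIS1+/+ replicate 2 was below every LIS1+/- library, whereas its FRZB level was above them. At Day 5 the mesenchyme sums were 141 to 145 CPM in LIS1+/+ and 42.4 to 78.1 CPM in LIS1+/-. In hESC, where FRZB was at 20.0 to 39.8 CPM, mesenchyme sums were 464 to 609 CPM and neural crest sums 89.7 to 128 CPM. Endoderm sums there were 42.7 to 92.8 CPM and surface ectoderm sums 2126 to 2433 CPM. These lists therefore also count genes that stem cells express. The part of these markers in the FRZB result was not tested. In bulk RNA, fewer cells that express a gene and less RNA per cell cannot be told apart.

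**Figure D3:**
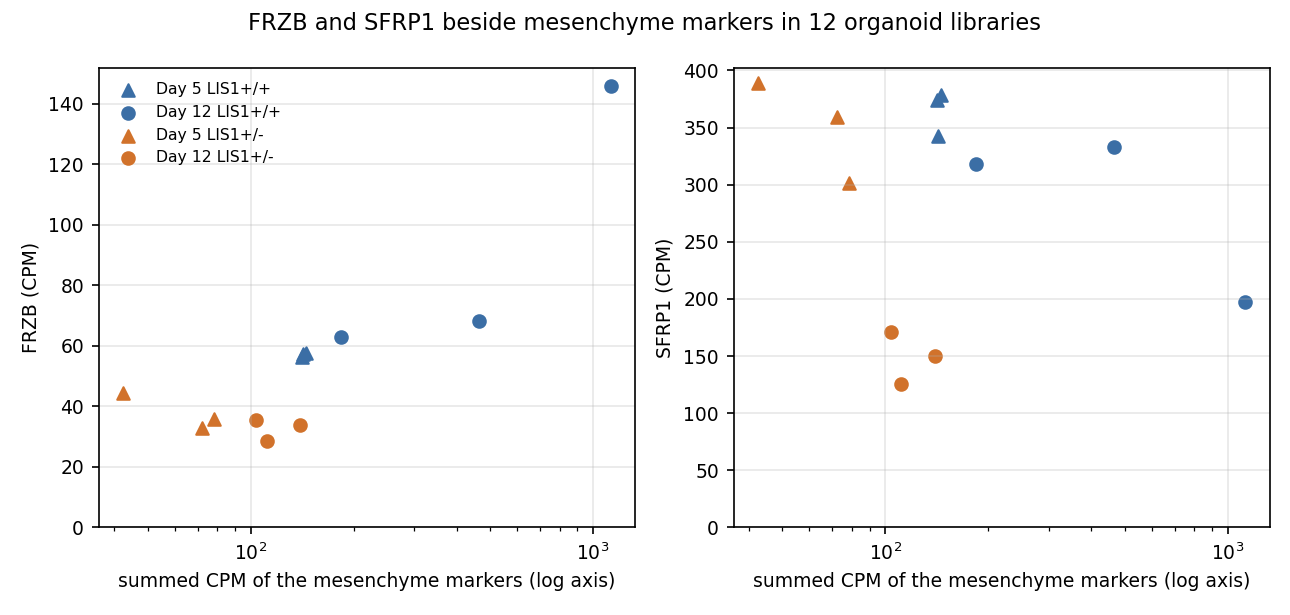
FRZB (left) and SFRP1 (right) in CPM on linear axes against the summed CPM of 13 mesenchyme markers (log axis) in the 12 organoid libraries, with triangles for Day 5 and circles for Day 12, blue for LIS1+/+ and orange for LIS1+/-. The Day 12 LIS1+/+ library with the highest sum, 1127 CPM, holds the highest FRZB level (146 CPM) and the lowest SFRP1 level of its group (198 CPM).

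Both DKK genes changed in organoids, in opposite directions between Day 5 and Day 12. DKK1, the LRP blocker, had 3 counts over the hESC LIS1+/+ libraries and 8 over hESC LIS1+/-. At Day 5 it stood at 31.1, 27.7 and 46.2 CPM in LIS1+/+ and at 65.8, 62.5 and 41.3 CPM in LIS1+/-, and at Day 12 at 13.6, 20.1 and 7.30 CPM against 9.89, 7.11 and 7.12 CPM. Every Day 5 library was above every library of the other stages, and the genotypes overlapped at each stage. In LIS1+/+ the pooled counts per library size were 60.9 times as high at Day 5 as in hESC (95% counting interval 20.7 to 297, adjusted p = 2.52e-09 in edgeR), and in LIS1+/- DKK1 rose 45.1-fold (adjusted p = 1.63e-10). Without replicate 3 of hESC, which held most of the counts, the ratios were 126 in LIS1+/+ (22.6 to 4999) and 70.1 in LIS1+/- (23.8 to 341). To Day 12 it fell by 1.38 ± 0.33 on the log2 scale in LIS1+/+ (adjusted p = 0.00278) and by 2.84 ± 0.33 in LIS1+/- (adjusted p = 8.05e-07). The difference between these falls, -1.46 ± 0.47, did not pass (adjusted p = 0.166). The genotype differences were 0.69 ± 0.28 at Day 5 and -0.78 ± 0.37 at Day 12 (adjusted p = 0.312 and 0.386).

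DKK3, the divergent family member, moved the other way. It stood at 30.0, 25.4 and 39.7 CPM in hESC LIS1+/+ and at 33.5, 23.9 and 37.1 CPM in hESC LIS1+/-. Day 5 organoids held 19.1, 17.8 and 21.2 CPM against 22.1, 26.3 and 22.5 CPM, and Day 12 organoids 57.5, 45.9 and 54.0 CPM against 62.4, 75.7 and 63.8 CPM. Day 12 lay above the other stages in both genotypes, and the lowest means were those of Day 5. DKK3 rose from Day 5 to Day 12 by 1.44 ± 0.22 in LIS1+/+ (2.71-fold, adjusted p = 2.67e-05) and by 1.51 ± 0.21 in LIS1+/- (2.85-fold, adjusted p = 1.24e-05). From hESC to Day 5 it fell by 0.71 ± 0.22 in LIS1+/+ (adjusted p = 0.0115), which was -0.52 (adjusted p = 0.0977) without hESC replicate 3 and also lost without the 3 libraries that stood apart (adjusted p = 0.0777, other alternatives from 0.00399), and the value in LIS1+/- was -0.42 ± 0.22 (adjusted p = 0.132). The LIS1+/- libraries lay above the LIS1+/+ libraries at Day 5 and at Day 12, with log2 differences of 0.29 ± 0.22 and 0.36 ± 0.21 that did not pass (adjusted p = 0.691 and 0.477).

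LEF1, the nuclear partner of beta-catenin and itself a target of the pathway, rose steeply between stem cells and Day 5, and no later change passed. It stood at 1.90, 0.67 and 0.62 CPM in hESC LIS1+/+, on 6 counts, and at 3.16, 4.96 and 2.52 CPM in hESC LIS1+/-, on 23 counts. Day 5 organoids held 64.9, 52.5 and 71.5 CPM against 71.8, 65.8 and 81.3 CPM, and Day 12 organoids 51.7, 52.8 and 85.2 CPM against 81.0, 72.3 and 93.5 CPM. The genotypes overlapped at both organoid ages and not in hESC. LEF1 rose 52.8-fold to Day 5 in LIS1+/+ (adjusted p = 3.13e-12) and 20.5-fold in LIS1+/- (adjusted p = 6.65e-12). Of the 6 counts in hESC LIS1+/+ 4 came from replicate 1, and without it the ratio was 97.8 (95% counting interval 27.0 to 809). Over the next step the values were 0.02 ± 0.22 in LIS1+/+ (95% interval -0.43 to 0.46, adjusted p = 0.969) and 0.17 ± 0.21 in LIS1+/- (-0.26 to 0.61, adjusted p = 0.636). The genotype difference was 1.58 ± 0.58 in hESC (2.98-fold, adjusted p = 0.272), 0.21 ± 0.21 at Day 5 (adjusted p = 0.788) and 0.37 ± 0.22 at Day 12 (adjusted p = 0.488). LEF1 overlaps the antisense gene LEF1-AS1, which had 0 to 24 counts in a library and 113 in all against 2550 of LEF1, and without a stated strand their reads cannot be told apart in the overlap.

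**Figure D4:**
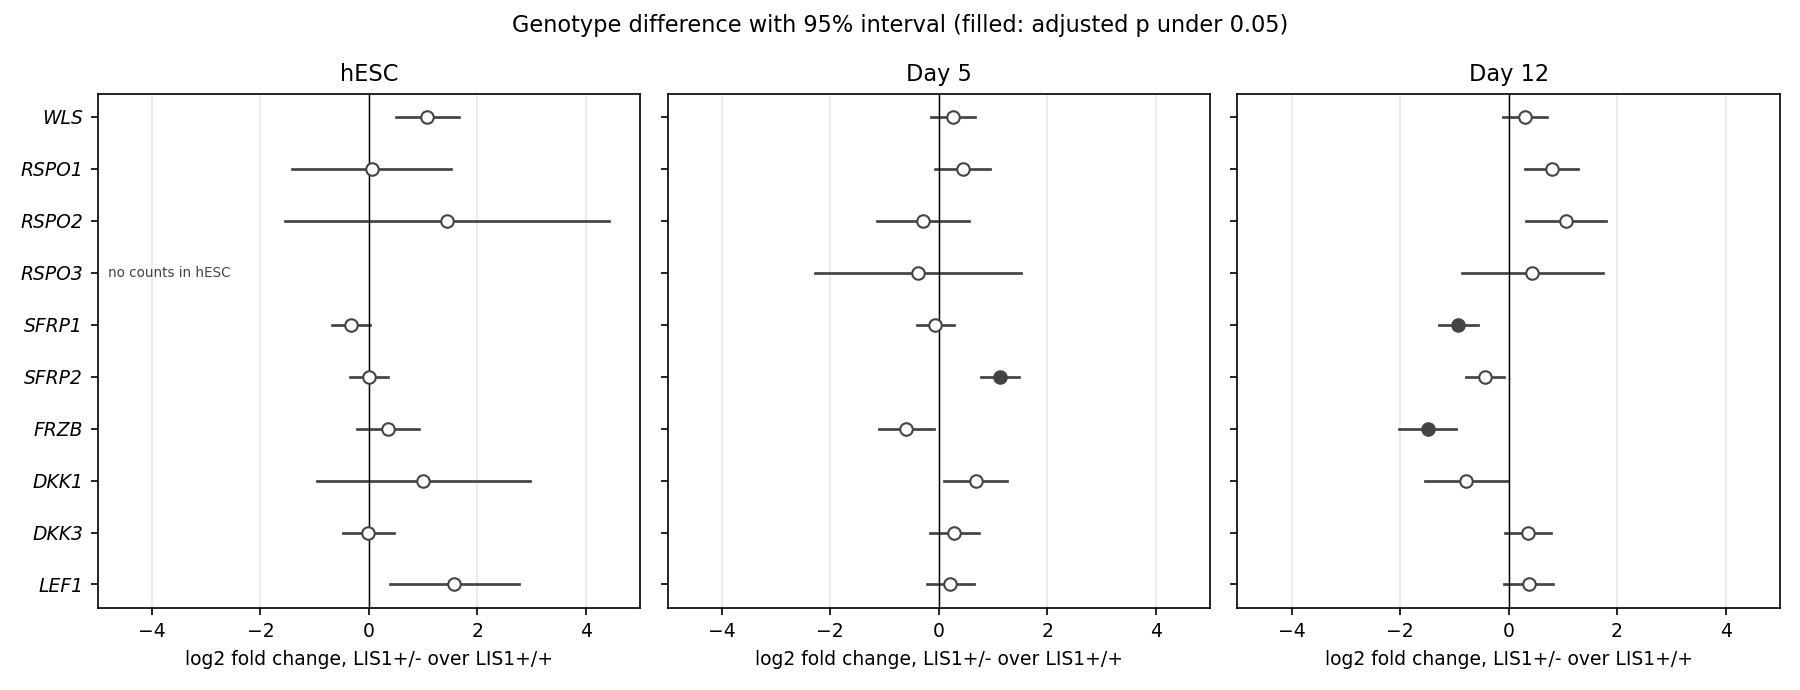
Log2 fold change of LIS1+/- over LIS1+/+ for the 10 genes in hESC, at Day 5 and at Day 12, with lines for the 95% interval of the fit and filled symbols where the adjusted p was under 0.05. SFRP2 at Day 5 (1.12) and SFRP1 and FRZB at Day 12 (-0.93 and -1.49) are filled, and RSPO3 has no value in hESC, where it held no counts.

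Across the 18 libraries the members fell into different courses. Pearson correlations of log2 CPM were 0.987 between WLS and LEF1, 0.962 between RSPO1 and RSPO2 and 0.924 between SFRP2 and DKK1, and SFRP1 ran against RSPO2 (-0.871). All 18 points share the step from stem cells to organoids, which sets much of such a value. Of the tested genes outside the 10, the one most like WLS was CRB2 (r = 0.994), like RSPO1 DMRT3 (0.989), like RSPO2 PRDM16 (0.981), like RSPO3 KCTD1 (0.970) and like LEF1 EMID1 (0.992). For SFRP2 it was FOXD1 (0.954), for DKK1 ZNF608 (0.972), for DKK3 IRF2BPL (0.915) and for SFRP1 the R-spondin receptor gene LGR4 (0.925). FRZB was most like TFAP2A (0.893), a gene of the neural crest list, which stood at 91.7, 15.1 and 35.5 CPM in Day 12 LIS1+/+ and at 1.24 to 2.85 CPM in Day 12 LIS1+/-.

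Of 70 other WNT pathway genes in 6 lists, which were also chosen with earlier results of these data known, 59 were tested. From hESC to Day 5, 25 rose and 14 fell in LIS1+/+ (42.4% and 23.7%, beside 22.9% and 21.7% of all tested genes), with a median log2 fold change of 0.62 beside 0.06 over all tested genes, and 23 rose and 15 fell in LIS1+/- (39.0% and 25.4%, beside 22.4% and 21.4%; median 0.39 beside 0.06). The share that fell was near that of all genes in both genotypes. The target and feedback genes had a median of 2.28 in LIS1+/+, with 7 of 11 rising and 1 falling. In that list SP8, a transcription factor of the forebrain, rose by 3.61 ± 0.32 (adjusted p = 6.45e-10) and MYC fell by 2.71 ± 0.24 (adjusted p = 1.19e-09). Among 9 other secreted modulators 3 rose and 4 fell: APCDD1, an inhibitor at the cell surface, rose by 5.98 ± 0.56 (adjusted p = 3.44e-08) and SFRP4 fell by 6.12 ± 0.46 (adjusted p = 3.61e-11), from 39.7 to 41.4 CPM to under 1 CPM. SULF1, a sulfatase that edits heparan sulfate, rose by 5.93 ± 0.35 (adjusted p = 4.38e-13), whereas the glypican gene GPC4 fell by 3.09 ± 0.19 (adjusted p = 8.51e-13). Of 9 receptors 3 rose and 3 fell, with ROR2, a receptor for WNT5A, up by 3.09 ± 0.33 (adjusted p = 1.93e-08) and ZNRF3, the ligase that R-spondins hold back, up by 1.13 ± 0.21 (adjusted p = 8.10e-05).

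Inside the cell, 4 of 10 cytoplasmic genes rose and 2 fell over the same step in LIS1+/+ (40% and 20%, beside 22.9% and 21.7% of all genes). Among those that rose were CTNNBIP1, an inhibitor of beta-catenin (1.54 ± 0.17, adjusted p = 5.80e-08), and APC2 (4.53 ± 0.77, adjusted p = 1.80e-04). Of 11 nuclear genes 6 rose and 2 fell (54.5% and 18.2%), with the corepressor TLE4 up by 2.93 ± 0.24 and the coactivator BCL9 up by 1.17 ± 0.17 (adjusted p = 2.44e-10 and 4.24e-06). From Day 5 to Day 12 in LIS1+/+ 10 of the 59 rose and 10 fell (16.9% each, beside 12.7% and 11.7% of all genes), with a median of 0.024 beside 0.017, and in LIS1+/- 7 rose and 5 fell (11.9% and 8.47%, beside 8.90% and 7.64%). The secreted antagonists SOST and WIF1 rose in LIS1+/+ by 6.39 ± 0.74 and 3.09 ± 0.74 (adjusted p = 3.56e-06 and 0.00306), from 7 and 6 counts over the Day 5 group. GPC4 and NKD2, a feedback inhibitor, rose by 1.27 ± 0.19 and 2.13 ± 0.41. The receptors ROR2 and LGR4 fell by 1.27 ± 0.28 and 0.73 ± 0.19, and KREMEN2, a DKK co-receptor, and the target gene SP5 fell by 1.53 ± 0.27 and 1.56 ± 0.33 (adjusted p up to 0.00653 for these 6 genes). The level of KREMEN1, of the same list as KREMEN2, went the other way in LIS1+/+. It stood at 12.1, 11.5 and 16.5 CPM at Day 5 and at 41.4, 32.7 and 26.3 CPM at Day 12. CTNNB1 rose by 0.52 ± 0.18, and BCL9L and TCF7 fell by 0.83 ± 0.26 and 0.75 ± 0.27 (adjusted p = 0.0330, 0.0200 and 0.0457), calls that were lost in 5, 1 and 8 of 12 alternatives. For CTNNB1 these left out any 1 of the Day 5 libraries or Day 12 replicate 1 or 2, and for BCL9L Day 12 replicate 2. For TCF7 they included Day 5 replicate 1 or 3 and Day 12 replicate 1 or 3.

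**Figure D5:**
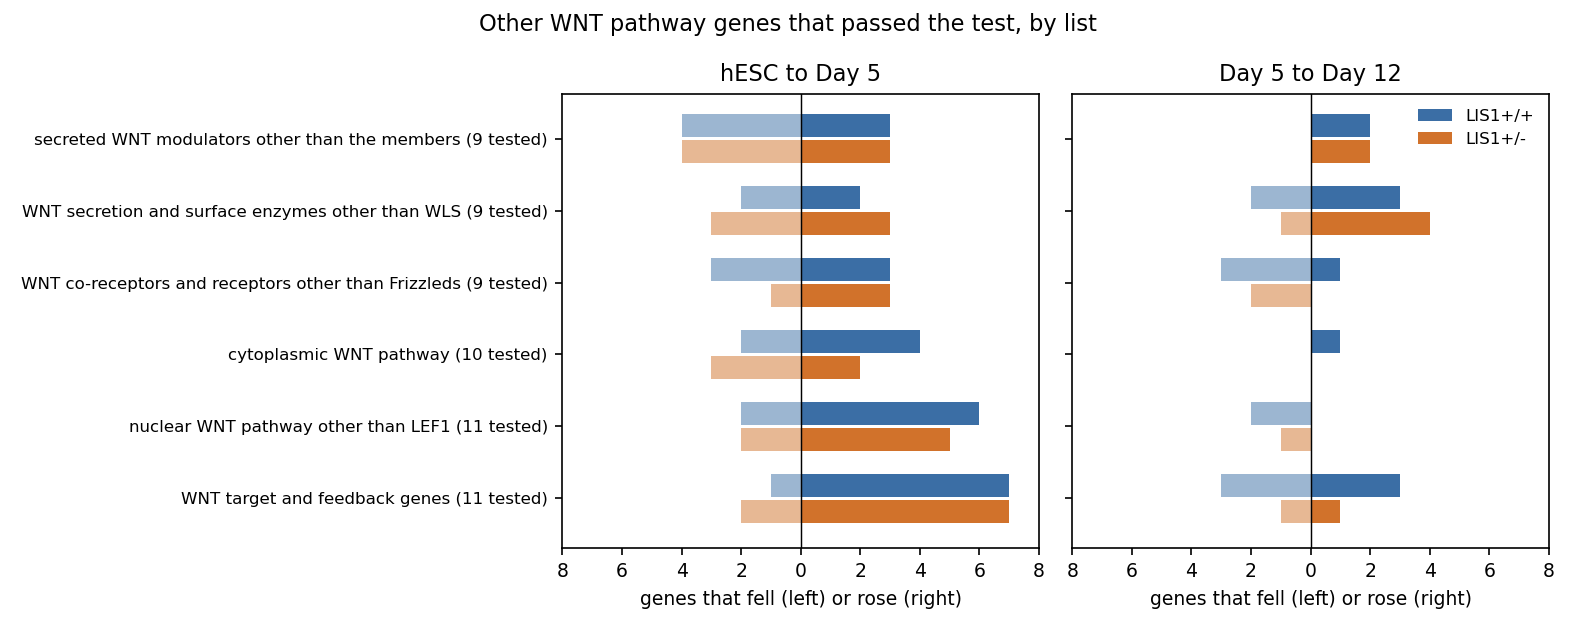
Number of genes of 6 WNT pathway lists that rose (right of 0) or fell (left of 0, paler) over the step to Day 5 and the step to Day 12 at an adjusted p under 0.05, in LIS1+/+ (blue) and LIS1+/- (orange), with the number tested in each list beside its name. The target and feedback list has 7 genes that rose in the first step in both genotypes, and over all lists fewer genes passed in the second step. The same held over all tested genes. In LIS1+/+ 22.9% of these rose and 21.7% fell in the first step, against 12.7% and 11.7% in the second. In LIS1+/- the shares were 22.4% and 21.4% against 8.90% and 7.64%.

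Between genotypes 2, 1 and 4 of the 59 genes passed in hESC, at Day 5 and at Day 12, which is 3.39%, 1.69% and 6.78%, beside 0.491%, 1.95% and 1.40% of all tested genes. In hESC 2 were higher in LIS1+/-: CTNNBIP1 (75.2, 62.8 and 62.7 CPM against 148, 131 and 143 CPM, log2 1.07 ± 0.17, adjusted p = 0.00308) and SFRP4 (41.0, 41.4 and 39.7 CPM against 100, 92.4 and 97.7 CPM, log2 1.25 ± 0.29, adjusted p = 0.0447). The SFRP4 call was lost in 8 of 12 alternatives, among them without any single hESC library (adjusted p up to 0.222). At Day 5 only ROR2 passed, with 70.4, 78.9 and 64.9 CPM in LIS1+/+ and 34.4, 29.2 and 33.4 CPM in LIS1+/- (log2 -1.14 ± 0.27, adjusted p = 0.0201), and the call was lost on leaving out any 1 of the Day 5 libraries other than LIS1+/+ replicate 3 (-1.19 to -1.08, adjusted p up to 0.101). At Day 12 4 genes were lower in LIS1+/- and none higher. LGR4, an R-spondin receptor, stood at 33.6, 41.5 and 29.7 CPM against 11.7, 12.8 and 13.7 CPM (log2 -1.43 ± 0.22, adjusted p = 4.74e-04). It passed in all alternatives run. LGR5, another R-spondin receptor of the same list, did not pass. It stood at 6.46, 30.2 and 20.0 CPM in LIS1+/+ and at 6.18, 10.8 and 14.8 CPM in LIS1+/-, and the genotypes overlapped. ROR1 differed by -0.84 ± 0.21 (adjusted p = 0.0386), a call lost without LIS1+/+ replicate 1, without any 1 LIS1+/- library and with only the Day 12 libraries fitted (adjusted p up to 0.267).

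The other 2 were secreted antagonists whose LIS1+/+ levels were highest in replicate 1 and lowest in replicate 2, as those of FRZB were. SOST stood at 82.1, 13.2 and 51.6 CPM in Day 12 LIS1+/+ and at 8.66, 5.41 and 5.13 CPM in LIS1+/- (log2 -2.98 ± 0.58, adjusted p = 0.00866), and without LIS1+/+ replicate 1 the value was -2.40 (adjusted p = 0.066). That call was also lost without LIS1+/- replicate 2 or 3, in DESeq2 and with only the Day 12 libraries fitted (-3.01 to -2.85, adjusted p up to 0.0782). WIF1 had 22 counts in LIS1+/+ and 1 in LIS1+/-, a ratio of 0.0273 per library size (95% counting interval 6.62e-04 to 0.169), with an adjusted p in edgeR of 0.00984 that was 0.0732 without LIS1+/+ replicate 1 and 0.0753 without LIS1+/- replicate 2. The mesenchyme sums of the same 3 LIS1+/+ libraries were 1127, 184 and 465 CPM, and their part in these results was not tested. The list medians of the genotype differences were 0.10 in hESC, -0.11 at Day 5 and 0.00 at Day 12, beside 0.03, 0.01 and -0.01 over all tested genes.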

How the data were processed

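Bulk MARS-seq, a 3′-end tag method, was run on total RNA of 18 libraries. Each library has 1 deposited file of raw, unnormalized counts by gene symbol. The authors used cutadapt, STAR and DESeq2, per the submitters' processing notes, which name GRCh37 and hg38 without their role. Not given in the sources used here are versions, strand and the handling of molecular identifiers. The 5 closing entries that name no gene were left out, and genes held 29.4% to 50.8% of all entries.

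Counts were filtered with filterByExpr, scaled with TMM and tested two-sided with the quasi-likelihood test of edgeR 4.0.16 (R 4.3.3), in 1 fit of 18 libraries and 6 groups with 12 residual degrees of freedom and Benjamini-Hochberg adjustment over 12215 genes. The quasi-likelihood test gives no SE. Each SE printed is the absolute log2 fold change divided by the square root of the F statistic. The 95% intervals of the fit rest on that SE, so both are approximate. The pipeline was tested on simulated data. A floor of 3 counts over a group stood for groups without counts, and 95% counting intervals, which cover counting error only, for 1 to 3 counts. Values against the floor take the counts of the other group as exact. Levels are not divided by transcript length, since tags lie at the 3′ end, and are not compared between genes. Likeness used log2 CPM with a prior count of 2. Alternatives were DESeq2 size factors, DESeq2 1.42.0, no filter, fits of only the compared libraries, a replicate block, each library left out, the 3 libraries that stood apart left out together, and a prior count of 0.5.

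The genes and lists were chosen with earlier results of these data known. Named besides the 10 genes were PAFAH1B1, the 2 genes of each pathway list with the smallest adjusted p in each LIS1+/+ step, the 4 with the smallest in each genotype comparison, and the genes most like each of the 10, of which the closest is printed. KREMEN1 was named beside KREMEN2, and LGR5 beside LGR4, outside this rule. The search for CTTTG was added after that for CTTTGAT found no match. Promoters were taken from RefSeq (GRCh38.p14) and overlaps from GENCODE release 29. Figures were drawn with Matplotlib 3.10.9.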

Additional observations from a re-analysis of the deposited data

Results flagged for a closer look

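For 3 results the difference between genotypes itself differed between stages, by the interaction term of the edgeR fit with Benjamini-Hochberg adjustment over all genes. For SFRP2 the log2 genotype difference was 1.12 ± 0.24 (SE, 3 libraries in each of 4 groups) higher at Day 5 than in hESC (adjusted p = 0.0240), and all 3 LIS1+/- libraries of Day 5 were above all 3 LIS1+/+ libraries. For SFRP2 it was -1.56 ± 0.24 at Day 12 relative to Day 5 (adjusted p = 6.15e-04), with overlapping genotypes at Day 12. For FRZB it was -1.85 ± 0.38 at Day 12 relative to hESC (adjusted p = 0.0231), with all 3 LIS1+/- libraries of Day 12 below all 3 LIS1+/+ libraries. The mesenchyme sums that moved with FRZB in Day 12 LIS1+/+ were 1127, 184 and 465 CPM, and their part was not tested.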

How the results depend on the processing

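Over 72 results for single genes of the 10 and 874 alternatives, 791 kept direction and side of the threshold, 33 lost a call, 22 gained one and 28 changed sign. Of 35 calls 27 held in every alternative run. In hESC the number of the 10 genes that differed between genotypes was 0, and 1 without a filter, in DESeq2 or without the 3 libraries that stood apart. At Day 12 it was 2, and 4 without a filter, 5 without the 3 libraries and 0 with only the Day 12 libraries fitted (1 to 4 on leaving out a library). The number whose genotype difference changed was 1 for Day 5 minus hESC (0 to 1 on leaving out a library). For Day 12 minus Day 5 it was 1, and 3 without a filter and 2 in DESeq2 (1 to 2 on leaving out a library). For Day 12 minus hESC it was 1, and 0 with only the compared libraries fitted (0 to 1). Fits of fewer libraries have fewer degrees of freedom, and otherwise the cause was not tested. The share of all genes that passed under each alternative, the replicate block below included, is not given here. These counts are therefore not read as particular to the 10 genes.

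No call on the 10 genes changed sign. Among values that were no calls, the hESC genotype difference became -0.16 for RSPO1 and 0.18 for DKK3 without the 3 libraries, 0.0017 for DKK3 without a filter, and for SFRP2 -0.0092 with DESeq2 size factors and in DESeq2 and -0.0064 in the fit of the compared libraries. RSPO3 at Day 5 became 0.13 and the WLS step from Day 5 to Day 12 in LIS1+/+ -0.0060 without the 3 libraries. The LEF1 step in LIS1+/+ became -0.022 without a filter and -1.7e-04 with the replicate block. On leaving out a library the hESC genotype values ran from -0.24 to 0.44 for RSPO1, -1.005 to 2.20 for RSPO2, -0.062 to 0.10 for SFRP2 and -0.16 to 0.18 for DKK3, the Day 5 values from -0.75 to 0.11 for RSPO2, -4.64 to 0.13 for RSPO3 (the former with no counts left in LIS1+/-, and no bound) and -0.14 to 0.034 for SFRP1, and the LIS1+/+ steps to Day 12 from -0.0067 to 0.59 for WLS, -0.44 to 0.051 for SFRP2 and -0.27 to 0.14 for LEF1.

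Whether the replicate numbers pair the libraries cannot be settled from weak correlations such as these. In the 7 pairs of groups compared, the deviations from group means of the 21 same-numbered pairs correlated at -0.126 to 0.101. Over all 45 such pairs of the 15 pairs of groups they correlated at -0.227 to 0.331. In none of the 15 were all 3 correlations over 0.1. The library with the same number was the best match for 11 of the 21, for all 3 in 2 of the 7. These 2 were the step from hESC to Day 5 in LIS1+/- and the genotype comparison at Day 12. In the latter the correlations were 0.040, 0.084 and 0.047. With the replicate number as a block, 0, 1 and 2 of the 10 genes differed between genotypes in hESC, at Day 5 and at Day 12, as without it, and 9, 7, 5 and 7 changed over the steps. DESeq2 size factors moved the median of all genes by at most 0.0360 on the log2 scale. Depth limits RSPO3 everywhere and RSPO1, RSPO2, DKK1 and LEF1 in hESC, where 3 counts over a group correspond to 0.456 to 0.576 CPM.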
